A study of Mus musculus with 8 samples.

Results

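Long non-coding RNAs expressed in activated CD8+ T cells were followed in cells treated with GC7 and in mock-treated cells, together with the coding genes beside them. The 211 long non-coding RNAs were chosen by annotated class and level: genes with the Ensembl 96 (GRCm38) biotype lincRNA, antisense, bidirectional_promoter_lncRNA or sense_intronic that exceeded 3 CPM (each count scaled to a common library total) in at least 4 of the 8 libraries. Of 9330 annotated genes of these classes, 3865 had any count and 215 passed the level filter, and 4 hosts of small nucleolar RNAs or relatives were set aside by symbol, which left the 211. They were 119 lincRNAs, 63 antisense genes, 17 bidirectional promoter genes and 12 sense intronic genes, among 11189 genes of all classes that passed the same filter and were tested. The filter used the same libraries as the comparison. Of the 211, 183 exceeded 3 CPM in at least 1 library of each group, 15 exceeded it in GC7 libraries only and 13 in mock libraries only, and the last 28 are counted apart below because a gene kept by a single group had to differ. Just inside the threshold, by the fourth highest CPM, lay Gm12596 at 3.01 and C920006O11Rik at 3.02, and just outside lay Gm15675 at 2.96 and Gm28370 at 2.97.

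The cells were CD8+ T cells from OT-I mice, whose transgenic T cell receptor recognises the ovalbumin peptide SIINFEKL, on a C57BL/6 and Rag-1 knockout background. All cultures received 100 nM SIINFEKL for 2 days and then 20 ng/mL interleukin-2 for 2 days, and for those last 2 days 4 cultures also received 10 µM GC7 while 4 mock cultures received its vehicle. GC7 inhibits DHPS, the enzyme that starts the conversion of a lysine of the translation factor eIF5a to hypusine, and as a spermidine analogue it can act on other polyamine processes. Library totals ran from 17528776 to 25284730 counts, so that 3 CPM stood for about 52.6 to 75.9 counts.

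Long non-coding RNAs are transcripts over which no protein is annotated. A few are abundant scaffolds of nuclear bodies, some are the precursors from which microRNAs are cut, and many start beside or opposite a coding gene and are made only when that part of the chromosome is active. Levels of most are low and differ widely between cell types, and a change in such an RNA says nothing by itself about the protein of its neighbour.

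Genes with a false discovery rate (FDR, edgeR's quasi-likelihood test with Benjamini-Hochberg adjustment over all 11189 genes) under 0.01 and more than a 2-fold change are named called below. Among the 211 long non-coding RNAs, 17 were called lower with GC7 (8.06%, against 5.31% of all genes tested) and 16 were called higher (7.58%, against 3.17%). With library totals in place of TMM factors the calls split into 13 lower and 20 higher. Without the fold requirement 31 were lower, or 14.7% against 23.5% of all genes tested, and 54 were higher, or 25.6% against 23.0%. Members above 3 CPM in libraries of both groups gave 7 lower and 8 higher calls among 183, or 3.83% and 4.37%, beside 4.14% and 2.49% of the 10888 genes of all classes that met the same condition. The other 10 lower and 8 higher calls came from the 28 members seen above 3 CPM in a single group. The median log2 fold change over the 211 was 0.16, with quartiles at -0.14 and 0.50, beside a median of 0.02 over all genes tested. In 94 members the FDR was above 0.1.

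**Figure D1:**
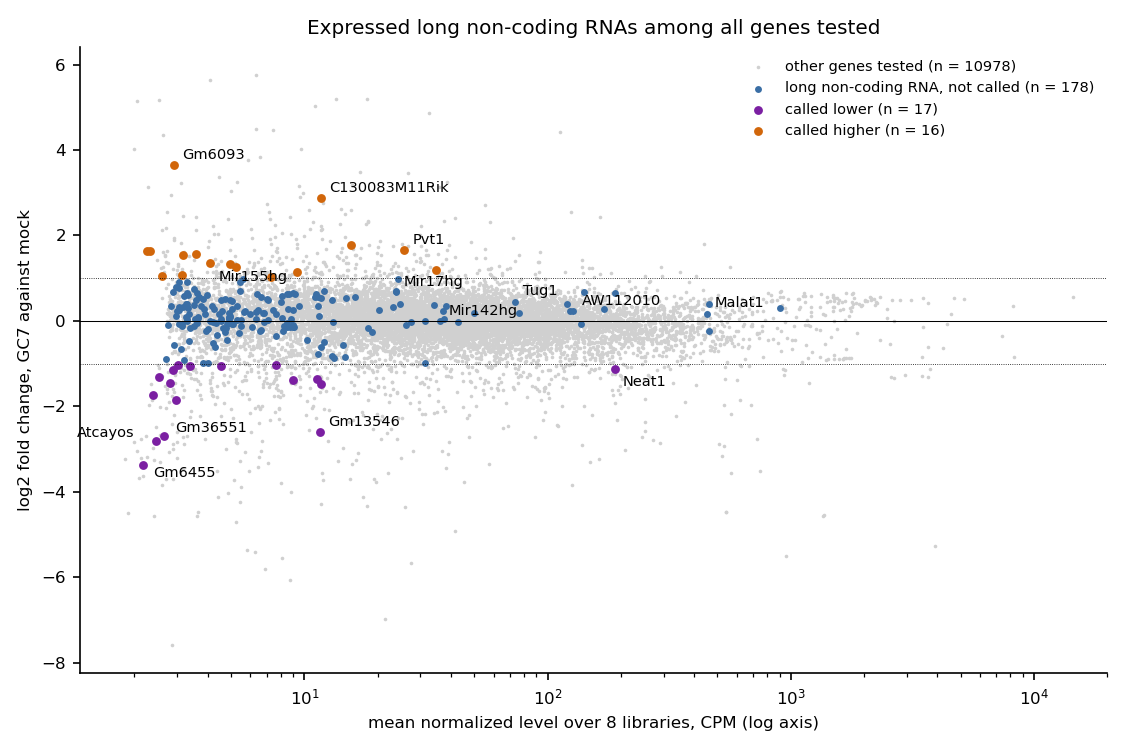
Log2 fold change of GC7 against mock (vertical axis) over the mean normalized level in CPM (horizontal log axis), 1 point per gene, with 10978 other genes in grey, 178 long non-coding RNAs that were not called in blue, and those called lower (17) and higher (16) in purple and orange. Dotted lines mark 2-fold changes. Most called members lie under 20 CPM, and Neat1 is the called member with the highest level.

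Members were weakly expressed as a class. Their median level was 5.42 CPM, against 37.5 CPM for the protein-coding genes tested, and 152 of 211 lay under 10 CPM. The standard error of a log2 fold change was accordingly larger, with a median of 0.15 against 0.09 over all genes. Among the 152 weak members 8.55% were called lower and 7.89% higher, and among the 1913 other genes of that level range 11.4% and 7.42%. At 10 CPM or more 4 members of 59 were called lower and 4 higher, or 6.78% each, beside 3.95% and 2.17% of 9065 other genes.

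All members together took 0.477%, 0.420%, 0.4999% and 0.536% of the counts in the mock libraries 1 to 4, and 0.585%, 0.568%, 0.548% and 0.605% in the GC7 libraries 1 to 4. On this scale every GC7 library lay above every mock library, and mock replicate 2 was the lowest. With TMM-scaled totals the groups overlapped (mock libraries 0.449% to 0.549%, GC7 libraries 0.533% to 0.589%). The means over library totals were 0.483% ± 0.0485 for mock and 0.577% ± 0.0242 for GC7 (SD, n = 4 each), and without Malat1 and Neat1 they were 0.417% ± 0.0390 and 0.515% ± 0.0325. A sum of this kind is set by few genes: Gm42047, Gm10076, Gm26917, Malat1 and Neat1 held between 44.4% and 51.0% of the members' counts in each library.

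Mock replicate 2 differed from the other mock libraries over the class. It was the lowest of the 4 mock libraries in 101 of the 211 members and the highest in 53. It also had the largest total and the lowest TMM factor (0.935, others 0.976 to 1.04). Without it, 17 members were called lower and 14 higher, and the median log2 fold change of the members fell to 0.10. For the members whose call or log2 fold change it moved most, values without this library stand below.

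The RNAs of nuclear architecture came first. Neat1 is the RNA on which paraspeckles are built, and Malat1, its neighbour on chromosome 19, is an abundant RNA of nuclear speckles. Neat1 (ENSMUSG00000092274, chr19:5824708-5845478, minus strand) stood at 228, 270, 272 and 268 CPM in the mock libraries and at 109, 110, 127 and 126 CPM in the GC7 libraries. The groups were far apart, with the highest GC7 library below the lowest mock library. Neat1 was thus 2.20-fold lower with GC7 (log2 fold change -1.14 ± 0.08 SE, edgeR FDR = 1.7e-07). Malat1 (ENSMUSG00000092341, chr19:5795690-5802672, minus strand) stood at 454, 275, 501 and 470 CPM in mock and at 434, 479, 594 and 408 CPM in GC7, and the groups overlapped. Its log2 fold change was 0.17 ± 0.17 (edgeR FDR = 0.40), and without mock replicate 2 it was 0.01. Per kilobase of exon, Malat1 was the more abundant RNA, with 60.9 CPM per kb in mock against 12.5 for Neat1. Of Neat1 and Malat1, only Neat1 passed the test. Frmd8, the coding gene 4224 bases from Neat1, fell from 233 ± 4.10 to 161 ± 4.06 CPM (log2 fold change -0.53 ± 0.05, edgeR FDR = 4.1e-06).

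The gene 2900097C17Rik, known as Norad, gives a cytoplasmic RNA that binds Pumilio proteins. It stood at 154, 135, 150 and 148 CPM in mock and at 245, 240, 207 and 231 CPM in GC7. All GC7 libraries exceeded all mock libraries, by 1.57-fold on the fitted means (log2 fold change 0.65 ± 0.07, edgeR FDR = 6.9e-06). Its near-identical copy Gm7292, which matched over 2537 bases at 99.2% identity, had a log2 fold change of 0.69 ± 0.13 (edgeR FDR = 0.00057), and how reads were divided between the copies is unknown. Firre and Miat, also listed as nuclear RNAs, were not members.

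Proteins of the paraspeckle assemble on Neat1. Of 10 of their genes tested, 2 were higher and 0 lower at an edgeR FDR under 0.01, with a median log2 fold change of 0.05. The 2 were Tardbp (log2 fold change 0.35 ± 0.06) and Matr3 (0.25 ± 0.06). None passed the 2-fold requirement in either direction.

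Hosts of microRNAs formed a small set in which 3 of 7 were higher and 0 lower at an edgeR FDR under 0.01 (all genes, 23.0% and 23.5%). Of the 3, Mir155hg and Gm37233 passed 3 CPM in GC7 libraries only. A host transcript is cut in the nucleus to free a hairpin, and the mature RNA pairs with messages through its seed, bases 2 to 8. The 7 hosts carried 15 annotated hairpins on their own strand. The libraries measured the host transcripts and not the mature RNAs, so the sequences show what is cut from the 3 hosts that rose, and from Mir142hg, the host with the highest level, which did not change by the test. They are given from RefSeq (GRCm38.p6), written 5′ to 3′ with the seed in capitals.
mmu-miR-155-5p, from Mir155hg: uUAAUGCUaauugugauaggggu
mmu-miR-17-5p, from Mir17hg: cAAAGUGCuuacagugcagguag
mmu-miR-20a-5p, from Mir17hg: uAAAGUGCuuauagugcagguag
mmu-miR-18a-5p, from Mir17hg: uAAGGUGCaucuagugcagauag
mmu-miR-19a-3p, from Mir17hg: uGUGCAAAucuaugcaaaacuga
mmu-miR-19b-3p, from Mir17hg: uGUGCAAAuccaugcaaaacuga
mmu-miR-92a-3p, from Mir17hg: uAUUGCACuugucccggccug
mmu-miR-5103, from Gm37233: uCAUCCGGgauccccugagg
mmu-miR-142a-3p, from Mir142hg: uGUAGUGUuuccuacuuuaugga
The miR-17 and miR-20a strands share the seed aaagugc, and the miR-19 strands share gugcaaa.

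Mir155hg, from which miR-155, a regulator of the effector CD8+ T cell response, is cut, stood at 2.10, 2.38, 2.47 and 2.15 CPM in mock and at 5.89, 5.23, 6.53 and 5.97 CPM in GC7. Every GC7 library was above every mock library. The transcript was 2.58-fold higher (log2 fold change 1.37 ± 0.13, edgeR FDR = 2.8e-06), and it passed 3 CPM in GC7 libraries only. The coding gene beside it, Mrpl39, a protein of the mitochondrial ribosome, had means of 47.1 ± 1.93 CPM and 43.9 ± 2.33 CPM (SD, n = 4 each; log2 fold change -0.10 ± 0.06, edgeR FDR = 0.20).

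Mir17hg, the host of the miR-17 to miR-92a cluster that promotes lymphocyte proliferation, stood at 17.5, 18.9, 18.8 and 18.3 CPM in mock and at 31.4, 31.6, 23.2 and 30.4 CPM in GC7. GC7 replicate 3 was the lowest of its group but still above all mock libraries. The log2 fold change was 0.67 ± 0.10 (edgeR FDR = 0.00010), a 1.59-fold rise. Mir142hg, host of the blood cell microRNA miR-142, stood at 29.9, 39.7, 40.4 and 35.7 CPM in mock and at 32.7, 32.9, 40.2 and 39.0 CPM in GC7. The groups overlapped almost fully (log2 fold change -0.01 ± 0.11, edgeR FDR = 0.94), and the sign turned under library totals and in several fits without 1 library. Its coding neighbour Tspoap1 fell from 578 ± 83.8 CPM to 155 ± 38.1 CPM (SD, n = 4 each; log2 fold change -1.89 ± 0.16, edgeR FDR = 9.5e-07).

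Gm37233, which spans Mir5103 in a single exon, rose from 2.26, 0.850, 2.19 and 2.05 CPM to 7.20, 6.42, 3.40 and 4.30 CPM (log2 fold change 1.56 ± 0.29, edgeR FDR = 0.00067), and its log2 fold change was 1.31 without mock replicate 2. The let-7 host 6720427I07Rik had a log2 fold change of 0.16 ± 0.11 (edgeR FDR = 0.24), 2900076A07Rik, which holds Mir1839, one of 0.50 ± 0.17 (edgeR FDR = 0.021), and Ftx, the host of Mir421 and Mir374b beside the X inactivation centre, one of -0.21 ± 0.18 (edgeR FDR = 0.33). 6720427I07Rik, 2900076A07Rik and Ftx thus did not pass the threshold. Among 9 tested genes of microRNA processing, Dicer1 (log2 fold change 0.52 ± 0.10) and Xpo5 (0.47 ± 0.08) were higher and 0 were lower at an edgeR FDR under 0.01.

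**Figure D2:**
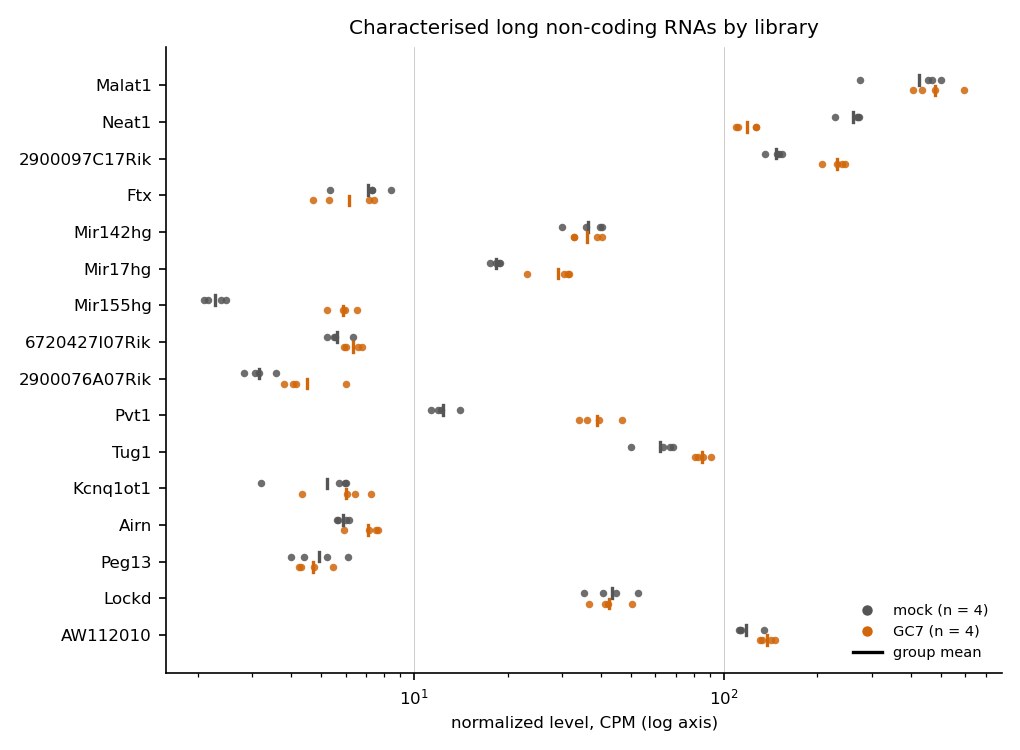
Normalized level in CPM (horizontal log axis) of 16 long non-coding RNAs with a known role or a high level in each library, mock in grey and GC7 in orange, 4 libraries each, with a bar at each group mean. Neat1 is lower in every GC7 library, Pvt1, Mir155hg, Mir17hg, 2900097C17Rik and Tug1 are higher in every GC7 library, and Malat1, Mir142hg, Lockd and Peg13 overlap between the groups. Mir155hg passed 3 CPM in GC7 libraries only.

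Pvt1 lies downstream of Myc, the growth-promoting transcription factor, and the region is often gained together with Myc in tumours. Pvt1 (ENSMUSG00000097039, chr15:62037986-62378096, plus strand) stood at 12.2, 11.3, 14.1 and 11.9 CPM in mock and at 33.9, 36.0, 46.7 and 39.3 CPM in GC7. Myc stood at 250, 248, 219 and 230 CPM in mock and at 157, 139, 86.2 and 142 CPM in GC7. The neighbours moved in opposite directions, with no overlap between the groups for either gene, and GC7 replicate 3 had both the highest Pvt1 and the lowest Myc level. Pvt1 was 3.15-fold higher (log2 fold change 1.66 ± 0.11, edgeR FDR = 1.1e-07) and Myc 1.81-fold lower (-0.85 ± 0.14, edgeR FDR = 0.00027). On the log2(CPM + 0.5) scale the ratio of Pvt1 to Myc was higher by 2.50 ± 0.24 SE with GC7 (limma FDR = 1.0e-05 over 153 pairs; exact permutation p = 0.0286, two-sided, the smallest that 4 against 4 libraries allow).

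Tug1, an RNA of broad expression antisense to Morc2a, stood at 68.3, 50.1, 66.8 and 63.6 CPM in mock and at 85.3, 90.9, 82.6 and 80.5 CPM in GC7. No library of one group reached the other (log2 fold change 0.45 ± 0.09, edgeR FDR = 0.0011). Morc2a had a log2 fold change of 0.38 ± 0.09 (edgeR FDR = 0.0023), and 483 bases of exon are shared by both genes on opposite strands. Trp53cor1, Lncpint and Meg3, listed with them for links to p53 and growth, were not members.

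The RNAs of imprinted regions that passed the filter gave no call. Kcnq1ot1 had means of 5.22 ± 1.36 CPM in mock and 6.02 ± 1.22 CPM in GC7 (log2 fold change 0.21 ± 0.21, edgeR FDR = 0.41), Airn 5.87 ± 0.260 and 7.07 ± 0.788 CPM (0.26 ± 0.12, edgeR FDR = 0.068), and Peg13 4.93 ± 0.931 and 4.69 ± 0.554 CPM (-0.07 ± 0.15, edgeR FDR = 0.74; SD, n = 4 each). Without mock replicate 2 the log2 fold change of Kcnq1ot1 was 0.03. The other 4 genes of that list were not members. Lockd, made downstream of the cell cycle inhibitor gene Cdkn1b, stood at 43.3 ± 7.33 CPM in mock and 42.6 ± 5.73 CPM in GC7 (log2 fold change -0.03 ± 0.12, edgeR FDR = 0.85), while Cdkn1b fell (-0.46 ± 0.06, edgeR FDR = 5.5e-05). Lists were matched by symbol only, so an RNA annotated under another name was missed. By symbol, Lockd was the 1 member of 12 listed RNAs with links to T cell genes or proliferation. The listed Oip5os1 was not found under that symbol, while 1700020I14Rik, 2010 bases from Oip5, was a member and rose (log2 fold change 0.67, edgeR FDR = 1.2e-05). In all, 13 of 39 symbols listed for a known role were members, with Norad listed under both its symbols and 1700020I14Rik not counted. Of the 13, 1 was lower, 5 were higher and 7 were neither at an FDR under 0.01, beside 23.5% lower and 23.0% higher over all genes tested.

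The 10 largest falls among the called members began with Gm6455, at 3.18, 4.85, 3.59 and 4.21 CPM in mock and at 0.341, 0.319, 0.446 and 0.418 CPM in GC7. Its groups were about 10.3-fold apart (log2 fold change -3.37 ± 0.22, edgeR FDR = 1.2e-07). It passed 3 CPM in mock libraries only, so the filter fixed the direction. Its transcript matched Gm6460, a tested gene elsewhere, over 1014 bases at 98.6% identity, so the value belongs to a family of copies rather than surely to this gene. No coding gene lies within 50 kb of it.

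Gm13546 (ENSMUSG00000086862, chr2:58164001-58177063, plus strand) is antisense to Cytip, which encodes a cytohesin-binding protein that regulates lymphocyte adhesion, and no exon of one overlaps an exon of the other. It stood at 19.3, 19.5, 19.7 and 20.8 CPM in mock and at 3.94, 2.73, 3.40 and 3.05 CPM in GC7. The mock libraries were tightly grouped and every GC7 library was far below them. The fall was 6.06-fold (log2 fold change -2.60 ± 0.11, edgeR FDR = 3.3e-09). Cytip stood at 464, 423, 459 and 449 CPM in mock and at 227, 236, 244 and 228 CPM in GC7 (log2 fold change -0.94 ± 0.06, edgeR FDR = 6.7e-08). The antisense RNA fell further than the coding gene, with a difference in their log2 ratio of -1.497 ± 0.14 (limma FDR = 8.1e-06).

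Atcayos and Gm36551 also lie opposite coding genes and share exon sequence with them on the other strand. Atcayos fell from 3.85, 4.80, 3.92 and 4.56 CPM to 0.828, 0.182, 0.781 and 0.668 CPM (log2 fold change -2.81 ± 0.27, edgeR FDR = 2.6e-06), and Atcay from 4.06 ± 0.434 to 1.97 ± 0.343 CPM (-1.03 ± 0.16, edgeR FDR = 0.00014). Gm36551 fell from 4.31, 5.02, 5.13 and 4.01 CPM to 0.682, 0.683, 0.502 and 0.919 CPM (-2.70 ± 0.19, edgeR FDR = 1.9e-07). Its partner Pilrb1, a paired activating receptor gene, fell from 4.02 ± 0.496 to 0.317 ± 0.139 CPM (-3.63 ± 0.24, edgeR FDR = 1.1e-07). In both pairs the RNA and the coding gene passed 3 CPM in mock libraries only. Their lower level in every GC7 library thus followed from the filter. Reads of such partners cannot be told apart where the counting did not use strand, which is not stated.

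Gm5547, 14204 bases from Rap1a, stood at 16.1, 19.8, 16.3 and 16.8 CPM in mock and at 5.99, 5.14, 6.08 and 7.39 CPM in GC7 (log2 fold change -1.49 ± 0.12, edgeR FDR = 6.4e-07). Gm40773, 18635 bases from Rap1b, fell from 3.67 ± 0.660 to 1.12 ± 0.419 CPM (-1.74 ± 0.23, edgeR FDR = 4.1e-05). Rap1a and Rap1b, which encode GTPases of integrin activation, had log2 fold changes of -0.58 ± 0.06 and -0.48 ± 0.06 (edgeR FDR = 3.0e-06 and 1.9e-05), so each coding gene fell less than the RNA beside it. 3300005D01Rik, 38089 bases from the sorting nexin gene Snx9, fell from 4.66 ± 0.560 to 1.27 ± 0.323 CPM (-1.86 ± 0.19, edgeR FDR = 4.3e-06), and Snx9 by 0.49 ± 0.07 on the log2 scale. Gm40773 and 3300005D01Rik passed 3 CPM in mock libraries only, so the filter fixed their direction.

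0610009L18Rik (ENSMUSG00000043644, chr11:120348678-120351190, plus strand) starts 136 bases from Actg1, the gene of gamma actin, and runs away from it. It stood at 3.13, 5.10, 4.24 and 3.91 CPM in mock and at 1.70, 1.37, 1.45 and 1.504 CPM in GC7, a 2.73-fold fall (log2 fold change -1.45 ± 0.18, edgeR FDR = 2.5e-05). Actg1 stood at 5078, 5645, 4987 and 4893 CPM in mock and at 3563, 3475, 2727 and 3486 CPM in GC7 (-0.64 ± 0.10, edgeR FDR = 0.00011). Both sides of the shared start region were lower in every GC7 library. For 0610009L18Rik, which passed 3 CPM in mock libraries only, this followed from the filter. Their log2 ratio differed by -0.54 ± 0.15 (limma FDR = 0.013), whereas the groups' ratios overlapped and the exact permutation p was 0.0571 (two-sided).

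1700001L05Rik, 3600 bases from Arfgap3, fell from 13.4, 12.4, 12.7 and 13.6 CPM to 5.35, 6.05, 3.57 and 5.01 CPM (log2 fold change -1.37 ± 0.14, edgeR FDR = 3.7e-06), and Arfgap3, a GTPase activator of the Golgi, fell by 0.84 ± 0.09 (edgeR FDR = 6.1e-06). Gm16754, opposite Keap1, the adaptor that marks Nrf2 for degradation, fell from 13.3, 16.9, 17.7 and 17.4 CPM to 5.94, 6.55, 6.31 and 6.47 CPM (-1.37 ± 0.11, edgeR FDR = 6.1e-07), and Keap1 fell by 0.40 ± 0.06 (edgeR FDR = 9.3e-05). For these RNAs too the GC7 libraries lay wholly below the mock libraries. Exon sequence of Gm16754 overlaps coding exons by 510 bases, so reads there may belong to either gene.

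Further called falls were picked out after their values were seen. Hk1os, opposite the hexokinase gene Hk1, had means of 3.59 ± 0.428 and 1.46 ± 0.424 CPM and a log2 fold change of -1.31 ± 0.20 (edgeR FDR = 0.00012), and Hk1 fell from 377 ± 10.7 to 151 ± 19.5 CPM, by 1.32 ± 0.09 on the log2 scale (edgeR FDR = 1.1e-07). The pair moved by nearly the same amount, with a difference in log2 ratio of 0.25 ± 0.21 (limma FDR = 0.36). Hk1os passed 3 CPM in mock libraries only, so the filter fixed its direction. Exon sequence of Hk1os overlaps coding exons by 157 bases, and that of Gm15283, the next RNA, by 330, so reads there may belong to either gene. Gm15283, opposite Hif1a, the oxygen-regulated transcription factor gene, stood at 10.97, 8.08, 11.1 and 11.1 CPM in mock and at 4.58, 5.83, 5.41 and 4.26 CPM in GC7 (-1.04 ± 0.14, edgeR FDR = 5.7e-05). Hif1a itself had a log2 fold change of 0.20 ± 0.07 (edgeR FDR = 0.024), and the log2 ratio of Gm15283 to Hif1a differed by -1.17 ± 0.13 (limma FDR = 3.4e-05). The log2 fold change of Gm15283 was -0.95 under library totals, -0.999 without mock replicate 3 and -0.97 without GC7 replicate 4, each short of 2-fold.

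The other 4 called falls were Slc36a3os (log2 fold change -1.15), AC154492.2 (-1.06), Gm36738 (-1.05) and BC043934 (-1.03), all near the 2-fold limit. Slc36a3os, AC154492.2 and BC043934 passed 3 CPM in mock libraries only, so the filter fixed their direction. AC154492.2 lies within Rhoq, a small GTPase gene that fell from 82.7 ± 5.01 to 30.6 ± 6.75 CPM on the same strand. Gm36738 lies 1628 bases from Rac2, which had a log2 fold change of -0.12 (edgeR FDR = 0.14). Without mock replicate 2 the log2 fold changes of Slc36a3os, Gm36738 and BC043934 were -0.97, -0.89 and -0.94, and without GC7 replicate 3 that of AC154492.2 was -0.98, all short of 2-fold with an FDR still under 0.01. Mirt1 fell just short, from 41.7 ± 5.38 to 21.04 ± 4.37 CPM (-0.99 ± 0.13, edgeR FDR = 5.4e-05; SD, n = 4 each).

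**Figure D3:**
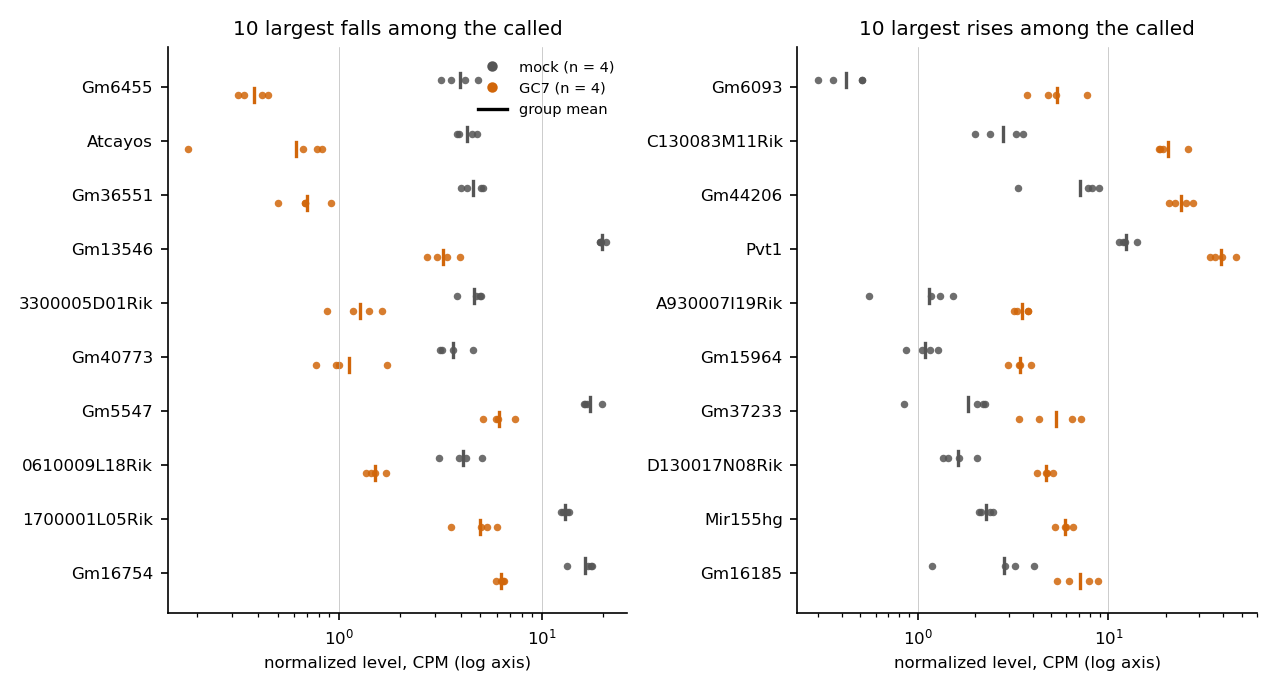
Normalized level in CPM (horizontal log axes) of the 10 called members with the largest falls (left) and the 10 with the largest rises (right), 1 point per library, mock in grey and GC7 in orange (4 each), with a bar at each group mean. No mock point overlaps a GC7 point in any of the 20 genes, and mock replicate 2 is the low mock point of Gm44206, Gm37233, A930007I19Rik and Gm16185. For Gm6455, Atcayos, Gm36551, 3300005D01Rik, Gm40773, 0610009L18Rik, Gm6093, A930007I19Rik, Gm15964, Gm37233, D130017N08Rik and Mir155hg, kept by a single group, the filter fixed the lack of overlap.

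The largest rise was that of Gm6093, a lincRNA with no coding gene within 50 kb, from 0.359, 0.510, 0.513 and 0.301 CPM to 7.74, 4.82, 3.74 and 5.30 CPM (log2 fold change 3.65 ± 0.29, edgeR FDR = 4.7e-07). The lowest library held 6 of its counts and the highest 159, and it passed 3 CPM in GC7 libraries only. C130083M11Rik (ENSMUSG00000106464, chr5:52199984-52216434, minus strand) rose from 3.28, 2.00, 3.54 and 2.41 CPM to 19.2, 18.3, 26.0 and 18.5 CPM. It was 7.32-fold higher (log2 fold change 2.87 ± 0.18, edgeR FDR = 6.2e-08), and GC7 replicate 3 stood highest. The gene 9470 bases away, the RNA helicase gene Dhx15, had means of 217 ± 22.7 and 245 ± 7.14 CPM (0.18 ± 0.08, edgeR FDR = 0.062), and the ratio differed by 2.50 ± 0.16 on the log2 scale (limma FDR = 4.0e-07).

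A930007I19Rik (ENSMUSG00000097855, chr19:29464750-29523159, minus strand) runs opposite Pdcd1lg2, the gene of PD-L2, without exon overlap. It stood at 1.18, 0.553, 1.54 and 1.30 CPM in mock and at 3.80, 3.78, 3.18 and 3.30 CPM in GC7 (log2 fold change 1.63 ± 0.23, edgeR FDR = 7.4e-05; 1.39 without mock replicate 2). Pdcd1lg2 stood at 3.999, 3.32, 4.19 and 4.76 CPM in mock and at 9.40, 9.83, 8.31 and 10.6 CPM in GC7 (1.23 ± 0.13, edgeR FDR = 7.3e-06). Both rose in every GC7 library, and their ratio differed by 0.19 ± 0.16 on the log2 scale (limma FDR = 0.36). A930007I19Rik passed 3 CPM in GC7 libraries only, so the filter fixed its direction. AC119228.1, opposite Cd274, the gene of PD-L1, was not called and was looked up after these values were seen. It stood at 3.76 ± 1.22 CPM in mock and 7.08 ± 1.25 CPM in GC7 (0.91 ± 0.22, edgeR FDR = 0.0035), and Cd274 at 14.7 ± 1.44 and 24.3 ± 1.16 CPM (0.73 ± 0.09, edgeR FDR = 1.5e-05; SD, n = 4 each). Exons of AC119228.1 and Cd274 overlap by 511 bases, so reads there may belong to either.

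Gm44206, antisense to the untested gene Efcab12, rose from 8.97, 3.36, 8.20 and 7.82 CPM to 27.8, 25.5, 22.3 and 20.8 CPM (log2 fold change 1.78 ± 0.22, edgeR FDR = 2.4e-05; 1.53 without mock replicate 2). Gm15964, antisense to Dnajc28, rose from 1.09 ± 0.172 to 3.42 ± 0.387 CPM (1.63 ± 0.17, edgeR FDR = 6.1e-06), and D130017N08Rik, 26074 bases from Usp42, rose from 1.63 ± 0.309 to 4.70 ± 0.356 CPM (1.54 ± 0.16, edgeR FDR = 5.0e-06; SD, n = 4 each). Gm16185, antisense to the carrier gene Slc25a36, rose from 3.23, 1.19, 4.05 and 2.86 CPM to 6.18, 7.92, 8.82 and 5.39 CPM (1.32 ± 0.28, edgeR FDR = 0.0014), and its log2 fold change was 1.05 without mock replicate 2. Slc25a36 rose by 0.53 ± 0.11 (edgeR FDR = 0.0014). All 4 RNAs were higher in every GC7 library than in any mock library. For Gm15964 and D130017N08Rik, which passed 3 CPM in GC7 libraries only, this followed from the filter.

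The remaining 6 called rises had log2 fold changes between 1.04 and 1.25, and several lay beside genes that rose as well. Gm46430, 21623 bases from Erap1, which encodes a peptidase that trims peptides for MHC class I, rose from 23.2, 15.99, 23.1 and 22.1 CPM to 54.0, 49.9, 47.2 and 42.4 CPM (log2 fold change 1.2002 ± 0.12, edgeR FDR = 3.2e-06), and Erap1 had a log2 fold change of 0.70 (edgeR FDR = 8.5e-06). A copy of Gm46430, E430024I08Rik, matched it over 927 bases at 91.0% identity. Gm17491, within the phosphate carrier gene Slc20a2 on the same strand, had a log2 fold change of 1.04 and Slc20a2 one of 0.83. Gm15777 (1.25), 2700038G22Rik (1.14), C920006O11Rik (1.07) and Gm20400 (1.04) were the others, and Gm15777, C920006O11Rik, Gm20400 and Gm17491 dropped under a 2-fold change in at least 1 fit without a library. C920006O11Rik and Gm20400 passed 3 CPM in GC7 libraries only, so the filter fixed their direction. Without mock replicate 2, the log2 fold change of Gm15777 was 0.99, that of C920006O11Rik 0.99 and that of Gm20400 0.85. Just under the limit, 9330175E14Rik, opposite Nlrc5, the transactivator gene of MHC class I, rose from 16.3 ± 1.54 to 32.4 ± 3.39 CPM (0.99 ± 0.10, edgeR FDR = 2.9e-06), and Nlrc5 from 141 ± 19.3 to 249 ± 9.64 CPM (0.82 ± 0.09, edgeR FDR = 8.9e-06). These genes were chosen after their values were seen. Exon sequence of 9330175E14Rik overlaps coding exons by 78 bases, so reads there may belong to either gene.

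Promoters were searched for motifs bound by Myc and related factors, HIF, CREB, ATF4 and p53, in the window from 250 bases before to 50 after each RefSeq start (GRCm38.p6). Of the 33 called members 19 had an entry, with 20 windows between them, and of all 211 members 101 had one, with 112 windows. The E-box CACGTG stood in 5 of the 20 windows, in 14 of the 112 (12.5%) and in 7.15% of all 32851 promoter windows. Its inner part ACGTG, the core of hypoxia elements, which every CACGTG also contains, stood in 6 of 20, in 31 of 112 (27.7%) and in 19.6% of all. The cyclic AMP element TGACGTCA was in 0 of 20 and 4 of 112 windows (1.79% of all), the ATF4 element TGATGNAA in 0 and 3 (3.97% of all), and the p53 element in 0 and 0 (0.0731% of all). Both strands were searched. These counts describe letters and not binding. The CACGTG windows of 4 called members with values above are shown, with the motif in capitals.
0610009L18Rik, lower with GC7, chr11:120348428-120348727, plus strand: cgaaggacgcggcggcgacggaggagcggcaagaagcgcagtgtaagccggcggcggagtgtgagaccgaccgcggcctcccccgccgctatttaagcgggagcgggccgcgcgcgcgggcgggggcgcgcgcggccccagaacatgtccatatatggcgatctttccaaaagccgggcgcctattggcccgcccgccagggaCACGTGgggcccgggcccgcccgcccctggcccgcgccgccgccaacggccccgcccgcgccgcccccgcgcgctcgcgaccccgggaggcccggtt
1700001L05Rik, lower with GC7, chr15:83367248-83367547, minus strand: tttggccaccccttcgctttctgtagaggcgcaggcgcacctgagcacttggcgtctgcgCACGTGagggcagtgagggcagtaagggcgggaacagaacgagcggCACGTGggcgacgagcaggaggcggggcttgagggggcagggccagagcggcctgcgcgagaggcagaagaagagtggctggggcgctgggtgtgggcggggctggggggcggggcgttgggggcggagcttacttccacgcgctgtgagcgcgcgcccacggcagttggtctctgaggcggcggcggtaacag
3300005D01Rik, lower with GC7, chr17:5798407-5798706, plus strand: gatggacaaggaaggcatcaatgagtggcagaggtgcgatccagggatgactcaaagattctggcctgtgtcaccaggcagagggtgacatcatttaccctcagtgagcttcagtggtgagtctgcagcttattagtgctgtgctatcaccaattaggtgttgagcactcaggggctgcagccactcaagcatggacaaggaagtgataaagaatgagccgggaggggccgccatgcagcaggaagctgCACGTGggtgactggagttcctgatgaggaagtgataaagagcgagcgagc
A930007I19Rik, higher with GC7, chr19:29521938-29522237, minus strand: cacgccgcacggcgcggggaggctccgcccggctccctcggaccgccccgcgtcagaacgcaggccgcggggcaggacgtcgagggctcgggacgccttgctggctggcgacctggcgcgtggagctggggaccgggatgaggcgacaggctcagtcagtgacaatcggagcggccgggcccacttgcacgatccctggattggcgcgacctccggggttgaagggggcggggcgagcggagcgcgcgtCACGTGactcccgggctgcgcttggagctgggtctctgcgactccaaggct
The window of 0610009L18Rik is shared with Actg1, which starts in the other direction, and that of A930007I19Rik lies 1171 bases from the start in the annotation used for counting.

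Whether members moved with their coding neighbours was asked over all positions. Of the 211 members, 29 started within 2 kb of a coding gene on the opposite strand and pointed away from it (divergent), 72 overlapped a coding gene on the opposite strand, 18 overlapped one on the same strand, 69 had the nearest coding gene within 50 kb, and 23 had none in that range. In 153 pairs the neighbour was tested too, with 148 different neighbours. The log2 fold changes had the same sign in 106 of the 153 pairs (69.3%), and in 2361 of 4199 pairs of neighbouring coding genes, formed in the same range (56.2%). In 34 pairs both genes had an edgeR FDR under 0.01, with the same sign in 32 (94.1%). Among the pairs of neighbouring coding genes the same held for 593 of 908 (65.3%). Among members above 3 CPM in libraries of both groups, 89 of 132 pairs had the same sign (67.4%), and 23 of the 25 in which both genes passed. The 2 exceptions were Pvt1 with Myc and 4933404O12Rik (0.48) with Ift22 (-0.63).

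The share of equal signs was 20 of 28 in divergent pairs, 38 of 56 in pairs that overlapped on opposite strands, 11 of 15 on the same strand, and 37 of 54 within 50 kb. As a description across genes, which share libraries and are not replicates, Pearson's r of the log2 fold changes was 0.51, 0.70, 0.67 and 0.29 in that order, and Spearman's coefficient 0.43, 0.61, 0.65 and 0.37. These classes include members kept by a single group, whose direction the filter fixed. Over all positions r was 0.39 and Spearman's coefficient 0.44 in the 132 pairs above 3 CPM in both groups. In the 21 pairs kept by a single group they were 0.74 and 0.80. Opposite-strand pairs whose exons overlap had equal signs in 28 of 44 and an r of 0.67, and those without exon overlap in 10 of 12 and an r of 0.85. Reads from overlapping genes are among what such pairs may share.

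The called members with a tested neighbour are given apart by filter. Among 14 above 3 CPM in both groups, 9 had a neighbour that moved the same way at an FDR under 0.01, 1 (Pvt1) a neighbour that moved the other way, and 4 a neighbour that did not pass. Among 13 kept by a single group the counts were 9, 0 and 4. Over all genes tested 23.5% were lower and 23.0% higher at that FDR, and no matching count was made for called coding genes. In 5 pairs both were called in the same direction: Atcayos with Atcay, Gm36551 with Pilrb1, Hk1os with Hk1, AC154492.2 with Rhoq, and A930007I19Rik with Pdcd1lg2. In all 5 the RNA had been kept by a single group, so its own call is no evidence for the pair. In 90 of 153 pairs the RNA moved further than the coding gene, and the median size of the log2 fold change was 0.36 for members and 0.29 for neighbours, with weaker genes estimated less precisely. Among members above 3 CPM in both groups the RNA moved further in 73 of 132 pairs, with medians of 0.275 and 0.277. Among the 21 pairs kept by a single group, where the member had to differ, the count was 17 and the medians 1.07 and 0.30.

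The ratio of a member to its neighbour, as log2(CPM + 0.5), changed in 68 of 153 pairs by limma at an FDR under 0.05 (44.4%), and in 58.8% of the pairs of neighbouring coding genes. By filter, it changed in 53 of 132 pairs above 3 CPM in both groups (40.2%). Among pairs kept by a single group, where the member had to differ, it changed in 15 of 21 (71.4%). The exact permutation test planned for each pair cannot fall below p = 0.0286 with 4 against 4 libraries and gave 0 pairs after adjustment, with a smallest adjusted value of 0.0694. At an unadjusted p under 0.05, 63 pairs (41.2%) had ratios that did not overlap between the groups, against 54.6% of the coding pairs. Of the 63, 49 were above 3 CPM in both groups and 14 were kept by a single group. The limma count was thus chosen after the permutation test proved unable to pass. Members were weaker than coding genes and had larger standard errors, so changed ratios were harder to find among them. Their shares and those of the coding pairs are therefore not like for like.

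**Figure D4:**
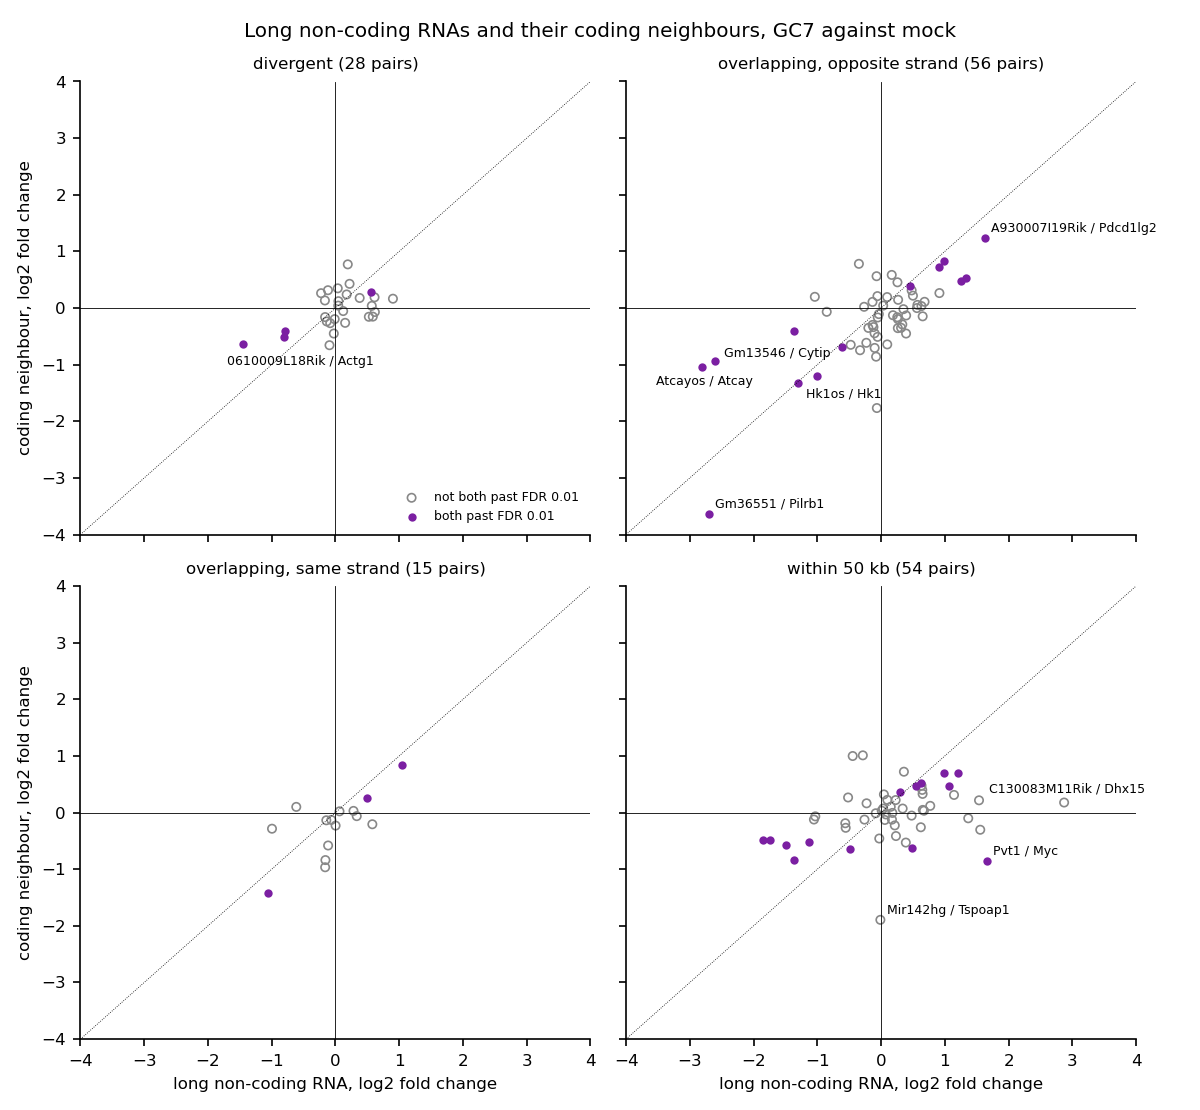
Log2 fold change of the long non-coding RNA (horizontal axis) and of its coding neighbour (vertical axis), GC7 against mock, 1 point per pair in 4 panels by relative position, filled where both genes had an FDR under 0.01. The dotted line marks equal change. Most filled points lie where both changes have the same sign (32 of 34, beside 65.3% of such pairs of coding genes), and Pvt1 with Myc lies at the lower right.

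**Figure D5:**
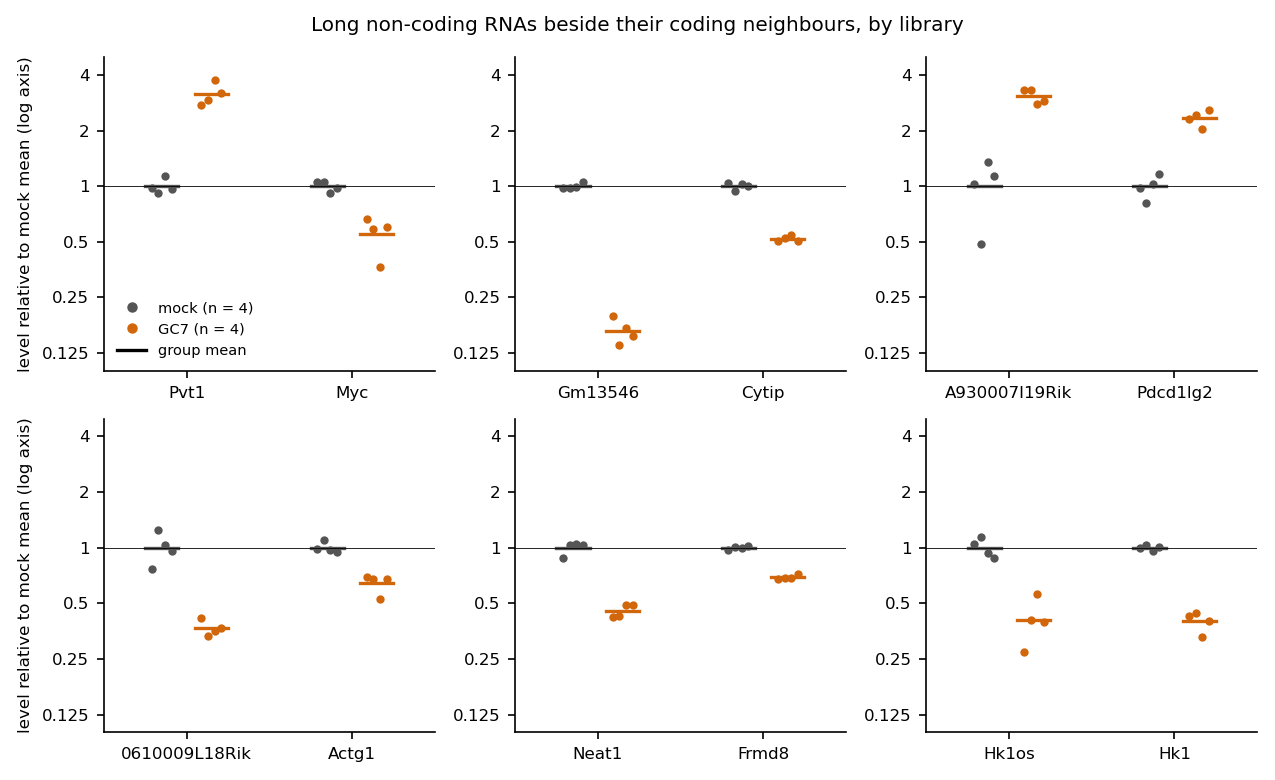
Level of 6 long non-coding RNAs and their coding neighbours in each library relative to the mock mean of that gene (vertical log axis), mock in grey and GC7 in orange (4 libraries each), with bars at group means. Pvt1 rises where Myc falls, Gm13546 falls further than Cytip, and A930007I19Rik with Pdcd1lg2 and Hk1os with Hk1 move by similar amounts.

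By level per length, the members with the highest values were led by Gm10076 with 1039 CPM per kb in mock and 1367 in GC7. It is 99.5% identical to the ribosomal protein gene Rpl41 over 383 bases, and its rise of 0.40 ± 0.10 on the log2 scale (edgeR FDR = 0.0043) may be that of Rpl41 reads. Gm42047, which matches Gm48362 over 3209 bases at 98.4% identity, stood at 143 and 178 CPM per kb, and Gm26917 at 150 and 127. Their log2 fold changes were 0.31 ± 0.20 and -0.24 ± 0.14 (edgeR FDR = 0.19 and 0.16). AW112010, a transcript linked to inflammatory responses, stood at 147 and 171 CPM per kb (0.22 ± 0.07, edgeR FDR = 0.019), and without mock replicate 2 its FDR was 0.00038. Mir142hg was next with 135 in both groups.

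Gm44174, with 141 bases of exon, 143 bases from Cd8a, stood at 68.1 and 98.6 CPM per kb. Its counts rose by 0.54 ± 0.13 on the log2 scale (edgeR FDR = 0.0037), those of Cd8a, the coreceptor gene, by 0.48 ± 0.06 (edgeR FDR = 3.4e-05), and the ratio by 0.04 ± 0.16 (limma FDR = 0.85). Near-identical copies were found for 19 members, whose transcripts matched a tested gene elsewhere over at least 200 bases at 90% identity and 50% of their length. Without them 16 members were called lower and 15 higher.

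Classes of members were described by medians and counts. The median log2 fold change was 0.18 for lincRNAs, 0.10 for antisense genes, 0.04 for bidirectional promoter genes and 0.14 for sense intronic genes, each with quartiles on both sides of 0. Beside 5.31% lower and 3.17% higher calls over all genes, spliced members gave 16 lower and 15 higher calls among 176 (9.09% and 8.52%), and members with a single exon 1 of each among 35 (2.86%). Exons of 65 members overlapped those of a coding gene, and the other 146 gave 12 lower and 14 higher calls (8.22% and 9.59%). Differences between these classes were not tested.

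Listed genes that process, degrade or bind such RNAs, and those of Polycomb repressive complex 2, a chromatin complex, moved by less than 2-fold. In the nuclear exosome and its adaptors, which degrade many antisense and promoter RNAs, 3 of 15 tested were lower and 5 higher at an edgeR FDR under 0.01, among them Exosc8 (log2 fold change -0.80 ± 0.07) and Exosc1 (0.55 ± 0.07). In nonsense-mediated decay, which removes many spliced non-coding RNAs, 1 of 14 was lower and 5 higher, with Upf3b at 0.59 ± 0.09 and Smg5 at 0.56 ± 0.08. In Polycomb repressive complex 2, 2 of 10 were lower and 2 higher, with Jarid2 at -0.57 ± 0.07 and Mtf2 at 0.61 ± 0.09. In Integrator, which ends many short non-coding transcripts, 3 of 14 were lower and 2 higher. Set beside 23.5% and 23.0% of all genes tested, these shares ran from 0% to 21.4% lower and from 14.3% to 35.7% higher, and 0 of the 72 genes were called in either direction.

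The label of the cells was checked on markers. All 8 markers of CD8+ T cells passed the filter, and their summed level ran from 8046 to 9541 CPM in mock and from 5352 to 7155 CPM in GC7. The highest of them was Gzmb, at 3673 CPM. Single markers differed: Cd8a rose from 703 to 978 CPM (log2 fold change 0.48, edgeR FDR = 3.4e-05), and Thy1 fell from 1634 to 1131 CPM (-0.53, edgeR FDR = 0.00015). B cell markers summed to 7.02 to 10.1 CPM in mock and 4.63 to 5.93 in GC7, with Ms4a1 and Pax5 at 0 in all libraries. Those of macrophages and monocytes summed to 8.44 to 11.1 and 5.74 to 9.65 CPM, those of dendritic cells to 4.61 to 6.42 and 4.51 to 5.26 CPM, with Siglech and Clec9a at 0, and those of NK cells to under 1 CPM in each library. Markers of CD4 T cells summed to 93.1 to 97.5 and 75.6 to 84.98 CPM, mostly from Zbtb7b, and those of stromal cells to 72.7 to 77.2 and 52.1 to 57.1 CPM, mostly from Pecam1 and Epcam. The summed levels for CD8+ T cells, B cells, CD4 T cells and stromal cells were lower in every GC7 library, although Cd8a itself was higher. The part of these sums in the results was not tested. Sums that rest mostly on Zbtb7b, or on Pecam1 and Epcam, do not by themselves show that such cells were present. The donors were Rag-1 knockouts, and the paper reports nearly all dissected lymphocytes as CD8+ T cells. In bulk libraries fewer cells of a type and a smaller share of these RNAs within cells cannot be told apart.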

How the data were processed

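RNA was sequenced from 8 cultures, 4 mock and 4 GC7, grouped by the sample labels, and all were used. The values are counts per gene, 1 table per library, which the authors deposited unnormalised and unpooled after trimming with Cutadapt, alignment to GRCm38 with STAR and counting with featureCounts. The study describes mRNA-seq. The selection step, strand setting and multimapping are not given in the sources used here. Reads on near-identical or overlapping genes may thus be misplaced.

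All 55536 gene IDs matched GENCODE M21 (Ensembl 96). The test covered genes that exceeded 3 CPM in 4 libraries or more and used edgeR (version 4.0.16, R 4.3.3): TMM factors, group as the only term, quasi-likelihood test, Benjamini-Hochberg adjustment over 11189 genes. Called means an FDR under 0.01 and over 2-fold change. Levels are TMM-scaled CPM (mean ± SD, n = 4), and log2 fold changes have standard errors from the F statistic. Ratios to neighbours used exact permutation and limma (version 3.58.1), beside 4199 pairs of tested coding genes, and copies BLAST (version 2.17.0+). DESeq2 (version 1.42.0) was an alternative. Scripts were tested on simulated data.

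Members and lists were chosen with earlier results of these data known. Text names the 10 largest called rises and falls that kept their direction in 4 of 4 same-numbered pairs, the 6 highest per kilobase, RNAs of 6 listed roles, microRNA hosts, and their neighbours, and says where others were picked afterwards. The methods call the cultures biological replicates. Counting error and the spread of 4 libraries limit precision, and no 2 libraries agreed within sampling noise.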

Additional observations from a re-analysis of the deposited data

Results flagged for a closer look

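In groups of 4 libraries, a library was looked at again when its gap to the nearest other passed Dixon's 95% limit as a share of the group's range. Of 102 groups, 9 did so, where chance gives about 5.1 (1 in 20). Mock replicate 2 was concerned in 4 cases. It was the highest mock library for AW112010 (134 CPM, others 112 to 113, ratio 0.930), and the lowest for Gm15283 (8.08 CPM, others 10.97 to 11.1, ratio 0.945), Gm37233 (0.850 CPM, others 2.05 to 2.26, ratio 0.857) and Kcnq1ot1 (3.19 CPM, others 5.73 to 6.00, ratio 0.905). GC7 replicate 3 was concerned in 4 more. It was the highest GC7 library for 2900076A07Rik (6.03 CPM, others 3.80 to 4.14, ratio 0.845) and C130083M11Rik (26.0 CPM, others 18.3 to 19.2, ratio 0.884), and the lowest for Mir17hg (23.2 CPM, others 30.4 to 31.6, ratio 0.865) and Actg1 (2727 CPM, others 3475 to 3563, ratio 0.895). Mock replicate 1 was the lowest for Neat1 (228 CPM, others 268 to 272, ratio 0.917).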

How the results depend on the processing

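The counts of members called (17 lower, 16 higher) stayed within 1.5 times of these values under RLE factors, library totals, TMM factors from protein-coding genes, no mitochondrially encoded genes, no filter, filterByExpr, DESeq2, and without near-identical copies or exon overlap. They moved where fewer members were tested: with 3 CPM required in all 8 libraries (127 members) 5 were called lower and 5 higher, and 14 and 33 without the fold requirement, and with 3 CPM in libraries of both groups 7, 8 and 19 (lower without the fold requirement). Over all genes, 1189 were called lower and 773 higher without a filter, 1013 and 601 with filterByExpr, and 222 higher with 3 CPM in all libraries. Leaving out 1 library gave 16 to 19 members called lower, 14 to 20 higher, 27 to 31 and 43 to 53 without the fold requirement, 568 to 604 and 331 to 370 calls over all genes (2303 to 2845 and 2096 to 2859 without the fold requirement), 64 to 77 pairs without overlap and 56 to 74 by limma. The share of counts without Malat1 and Neat1 was 0.417% in mock and 0.515% in GC7. Signs turned for Lockd (0.068 under library totals, -0.12 to 0.082 without 1 library), Mir142hg (0.083 and -0.096 to 0.042) and Peg13 (0.027 and -0.15 to 0.048), none past the threshold. The cause was not tested. Gm44174 and Gm10076 each passed the FDR threshold by little and lost it in 4 fits without 1 library, while 2900076A07Rik (library totals), AW112010 (library totals, without mock replicate 2) and Gm42047 (no filter) gained it. None of the 20 largest called changes lost its call where it was tested. Replicate numbers did not pair the libraries (correlations of same-numbered deviations 0.29, -0.13, 0.21 and -0.20). With the replicate block 18 members were called lower and 16 higher, 72 pairs changed by limma, and 4 of 8 libraries deviated most alike with their own number.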
